A study of Mus musculus with 32 samples.

Results

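The arteries described here came from mice that had a sham operation and no angiotensin II. They gave 16 of the 32 small RNA libraries in the series, 8 collected at 7 days and 8 at 14 days, and were chosen by their treatment label alone. The mice were male C57BL/6J (strain label C57BL/6), 10 to 12 weeks old, with 10 mice treated and 8 sequenced in each group, from 1 µg of RNA each. The tissue was the mesenteric artery, freed from fat and veins. The other 16 libraries came from mice given angiotensin II (Ang II, 1000 ng/kg/min) for the same times, and they enter below only where named. The labels describe the controls as sham-operated without saying whether a pump was placed. No library from an unoperated mouse or an earlier day was analysed here, so days since surgery and the added age of the mice cannot be told apart.

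MicroRNAs (miRNAs) are short RNAs cut from a hairpin precursor. Each hairpin has a 5p and a 3p arm, and the arm that is loaded into an Argonaute protein steers it to messenger RNAs through its seed, bases 2 to 8 of the mature strand. Families that share a seed can bind the same messages, while neighbouring hairpins can share 1 precursor transcript. The wall of a small artery is mostly smooth muscle, whose contractile state is known to go with the miR-143/miR-145 locus, lined by an endothelium rich in miR-126.

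A miRNA was described if its mean over the 32 libraries reached 1 normalised RPM (reads per M, M being mega, as scaled by the authors), with 1 row kept per name. That left 543 of 1030 distinct rows. The rows nearest the threshold were miR-1306-5p at 1.003 and miR-92a-1-5p at 1.004 inside it, and miR-135a-5p at 0.986 and miR-547-3p at 0.982 outside. Of the 543, 128 are unplaced rows with names such as Novel_z_1, for which no sequence or location is printed. A mature sequence was matched for 360 rows, which held 287 different seeds, and 44 seeds were shared by at least 2 rows.

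Among the 360 of 543 tested rows matched to a mature sequence, which do not include miR-143-3p or miR-145a, the members that carried most reads in the 5 most abundant seed families are shown because their resemblance bears on how reads can be told apart. Sequences run 5′ to 3′ as in RefSeq for GRCm38.p6, with the seed in capitals.
miR-10b-5p: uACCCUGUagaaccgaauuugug
miR-10a-5p: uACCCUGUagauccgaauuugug
miR-26a-5p: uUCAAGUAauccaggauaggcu
miR-26b-5p: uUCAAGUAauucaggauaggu
miR-30a-5p: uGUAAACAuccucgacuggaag
miR-30c-5p: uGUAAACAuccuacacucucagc
let-7f-5p: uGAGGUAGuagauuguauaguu
let-7c-5p: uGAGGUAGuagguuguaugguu
let-7a-5p: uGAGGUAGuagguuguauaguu
miR-27b-3p: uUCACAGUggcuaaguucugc
miR-27a-3p: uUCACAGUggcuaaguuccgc

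Counted from 1 at the 5′ end, miR-10b-5p and miR-10a-5p differ by the single substitution A12U. The pair miR-27b-3p and miR-27a-3p differs by U19C, let-7a-5p and let-7c-5p differ by A19G, and let-7a-5p and let-7f-5p differ by G12A. The mature miR-10b-5p lies on the plus strand at chr2:74726074-74726096, inside the annotated genes Hoxd3 and Hoxd4. The mature miR-10a-5p lies on the plus strand at chr11:96317186-96317208, where the annotation has no other gene at its hairpin. The sequence of miR-26a-5p has a copy on chromosome 9 and one on chromosome 10, and reads of such copies cannot be separated.

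Mean depth was lower at 14 days. Each sham library gave between 12.2 and 16.95 M recovered reads, counted over distinct rows. The 7-day mean was 15.96 ± 0.778 M and the 14-day mean 14.7 ± 1.32 M (SD, n = 8 each, exact two-sided permutation p = 0.0295, adjusted p = 0.103 over 7 quantities compared per library). These 7 quantities include the 3p share of miR-145a, picked after miR-145a-3p had been called, and the adjusted p for depth depends on it. The groups overlapped in depth. At these depths 3 reads stood at 0.141 to 0.351 RPM. Every library contained 608 to 720 rows with at least 3 reads.

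Some libraries stood apart from their group. Of 150 groups of 8 libraries screened for an outlying library, 7 were flagged, where chance alone would give about 7.5. In 7-day replicate 1 the neuron-rich miR-138-5p stood at 1496 RPM, against 84.9 to 229 RPM in the other 7-day libraries. In 14-day replicate 1 the gut and liver miRNA miR-194-5p stood at 1253 RPM, against 111 to 260 RPM in the other 14-day libraries. All 7-day sham mice carry numbers that start with 27 or 28 (their mouse-number series), as do 14-day replicates 7 and 8, while the other 6 mice at 14 days carry numbers that start with 26. For these 6 libraries, mouse-number series and time cannot be told apart.

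The resting profile was dominated by 1 miRNA. The smooth muscle miRNA miR-143-3p held 47.1% ± 3.05 of recovered reads (SD, n = 16), from 41.4% to 52.0%, and ranked first in 16 of 16 libraries. The 5 most abundant miRNAs together held 71.1% ± 4.43, and the 20 most abundant 90.6% ± 1.99 (SD, n = 16). In single libraries 1 to 3 miRNAs held 50% of the reads and 13 to 26 held 90%. The mean number that held 90% was 18.6 ± 3.29 at 7 days and 19 ± 4.31 at 14 days (SD, n = 8 each, exact two-sided permutation p = 0.897).

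Below miR-143-3p the order was less fixed. Second place belonged to miR-10b-5p in 11 libraries and to miR-26a-5p in 5. The homeobox-cluster miRNA miR-10b-5p held 8.88% ± 3.17, with a range of 4.33% to 15.1%. Its near twin miR-10a-5p held 5.71% ± 0.768 and stayed between 4.23% and 6.78%. Shares of 5.94% ± 1.11 for miR-26a-5p, 3.47% ± 0.905 for miR-30a-5p and 3.28% ± 0.903 for miR-27b-3p followed (SD, n = 16 each). The ranges of miR-26a-5p and miR-10a-5p overlapped, as did those of miR-30a-5p and miR-27b-3p. Neither pair kept 1 order in all libraries. miR-26a-5p held rank 2 in 5 libraries and rank 3 in 5, and miR-10a-5p held rank 3 in 8. miR-27b-3p exceeded miR-30a-5p in 7-day replicate 1 (30932 against 24512 RPM). miR-30a-5p exceeded miR-27b-3p in 7-day replicate 3 (50760 against 32545 RPM).

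**Figure D1:**
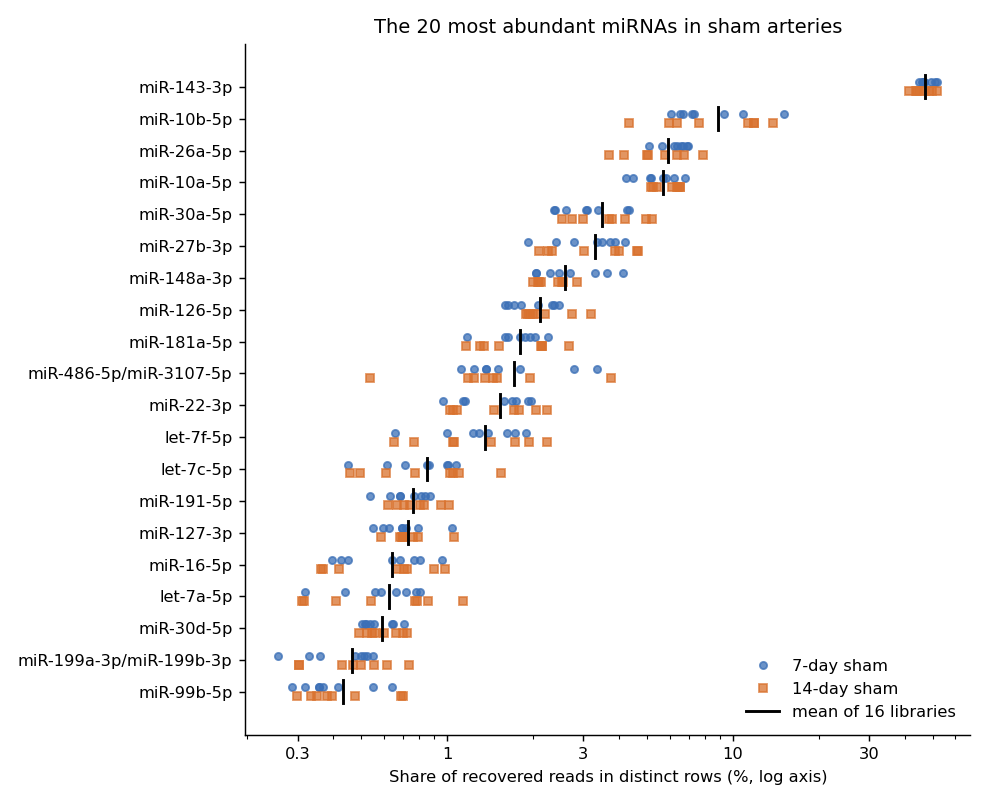
Share of recovered reads (%, log axis) of the 20 miRNAs with the highest mean share. Each blue circle is a 7-day and each orange square a 14-day sham library, and the black bar is the mean of 16. The 2 groups overlap for every miRNA shown, and miR-143-3p stands alone at 41.4% to 52.0%.

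The next places were held by miR-148a-3p with 2.58% ± 0.619, the endothelial miR-126-5p with 2.12% ± 0.419 and miR-181a-5p with 1.798% ± 0.432 (SD, n = 16 each). The joint row miR-486-5p/miR-3107-5p, which is rich in red blood cells, held 1.72% ± 0.857 and ran from 0.536% to 3.75%. Ranks 11 to 20 were miR-22-3p (1.53%), let-7f-5p (1.35%), let-7c-5p (0.851%), miR-191-5p (0.759%), the imprinted miR-127-3p (0.731%), miR-16-5p (0.641%), let-7a-5p (0.624%), miR-30d-5p (0.590%), miR-199a-3p/miR-199b-3p (0.463%) and miR-99b-5p (0.433%). The 128 unplaced rows held 0.846% ± 0.112 in all (SD, n = 16). Named miRNAs thus held nearly all of the reads.

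Grouped by seed, the miR-10 family held 14.6% ± 3.70 of reads from 2 members (SD, n = 16). The miR-26 family held 6.22% ± 1.17 from 2 members and the miR-30 family 3.95% ± 0.854 from the 4 members matched. The abundant miR-30d-5p is not among those 4, as it had no matched sequence. The let-7 family held 3.47% ± 1.15 from 9 members and the miR-27 family 3.43% ± 0.951 from 2 members. miR-26a-5p, miR-30a-5p and miR-27b-3p each carried most of their family's reads, while both miR-10 members were abundant. The let-7 family was spread more evenly, with let-7f-5p, let-7c-5p and let-7a-5p each above 0.6% of reads.

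The labelled tissue was checked against marker miRNAs. All 5 measured rows of the contractile smooth muscle list (miR-143, miR-145a, miR-145b) passed the filter, with a summed level of 317585 to 739453 RPM. The endothelial pair miR-126-5p and miR-126-3p summed to 16900 to 35282 RPM. Both lists were thus present in 16 of 16 libraries. Levels per cell cannot be read from these values, because in bulk tissue fewer cells of a type and less RNA per cell cannot be told apart.

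Markers of other tissues were also measured. Rows at 0 in all 32 libraries had been dropped first, so detection of the remaining list rows was nearly fixed in advance. Some of these rows stayed very low, such as miR-206 with at most 0.117 RPM in sham libraries. The pancreas list, led by the islet miRNA miR-375-3p, summed to 1894 to 8001 RPM. The gut and liver list, led by miR-192-5p, summed to 1503 to 16572 RPM and the epithelial miR-200 list to 1346 to 5069 RPM. Red blood cell miRNAs summed to 5951 to 50268 RPM. The joint row miR-486-5p/miR-3107-5p gave most of that sum, with a mean of 18867 RPM over the sham libraries beside 613 RPM for miR-451a. Leukocyte miRNAs summed to 544 to 1024 RPM, striated muscle miRNAs to 865 to 1207 RPM and neuronal miRNAs to 217 to 611 RPM. Adipose tissue miRNAs summed to 1074 to 1743 RPM, mostly from miR-378a-3p with a mean of 1088 RPM over the sham libraries. Of the striated muscle list, 4 of 11 measured rows passed the filter, and miR-133a-3p gave most of its sum. The liver-specific miR-122-5p reached at most 3.40 RPM and was at 0 in 1 library, 14-day replicate 7.

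The main comparison asked how the profile of sham arteries differed between 14 and 7 days. 1 miRNA differed. It was miR-145a-3p, the minor arm of a smooth muscle hairpin, which passed the test (limma-trend, Benjamini-Hochberg adjusted p under 0.05) and was lower at 14 days. It made up 0.184% of the 543 rows tested. No row was called higher, and 14 rows (2.58%) had an unadjusted p under 0.05, 6 higher and 8 lower, where chance alone would give 27.2. The log2 difference of all rows had a median of 0.001 and quartiles of -0.11 and 0.11, with 275 rows above and 268 below 0. Across the 543 rows, the 2 groups overlapped in every case.

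The design bounded most differences on the log2(RPM + 1) scale. There the 95% interval of the difference lay inside a 2-fold change in either direction for 481 of 543 rows, and inside 1.5-fold for 339. At a mean of 10 RPM or more, these numbers were 247 and 181 of 279. The offset of 1 RPM shrinks the folds of rare rows, so the counts over all rows do not bound those folds in RPM. Rows outside those bounds could differ by more than that without having been called. The p-values measure the spread between libraries, which the labels tie to separately numbered mice.

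**Figure D2:**
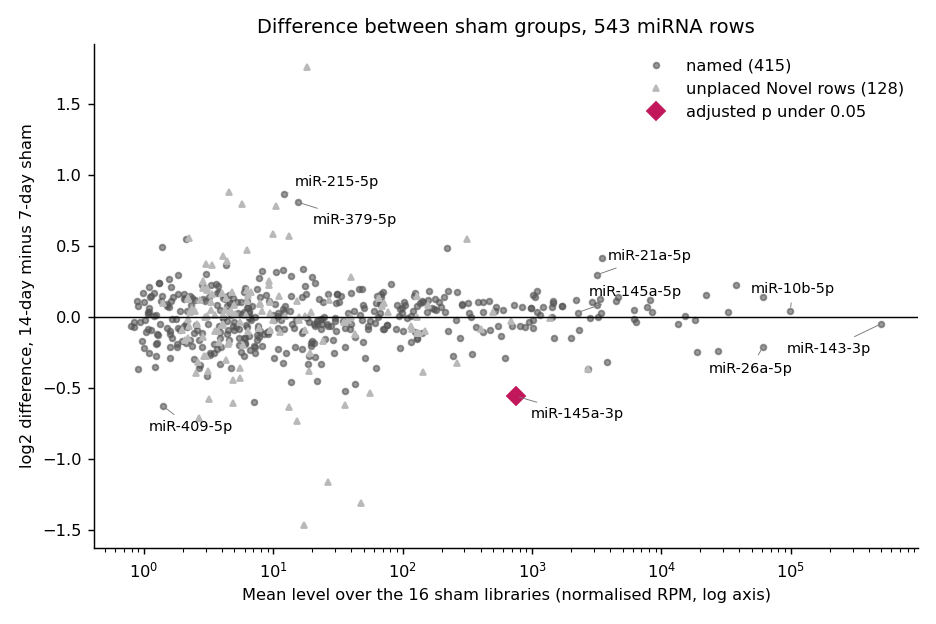
Difference between sham groups for 543 rows. The horizontal axis is the mean level over 16 libraries (normalised RPM, log axis) and the vertical axis the log2 difference, 14-day minus 7-day. The called miRNA, miR-145a-3p, lies at -0.56, miR-143-3p and miR-145a-5p lie near 0, and the points farthest from 0 are unplaced rows (grey triangles).

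miR-145a-3p ranged from 684 to 1186 RPM at 7 days, with a median of 876, and from 527 to 714 RPM at 14 days, with a median of 591. At 14 days, 7 of 8 libraries lay below every 7-day library, and the lowest 7-day library lay within the 14-day range. The mean fell from 895 ± 159 to 604 ± 67.6 RPM (SD, n = 8 each). The fold was 0.680 and the log2 difference -0.56 ± 0.11 (SE, 95% interval -0.78 to -0.33), with an adjusted p of 0.0472 in limma-trend. The Mir145a hairpin lies on chromosome 18 from 61647825 to 61647894 on the minus strand (GRCm38), outside other annotated genes and close to Mir143 at 61649196 to 61649258.

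The call did not hold in most fits with 1 library fewer. It held in 11 of 16 other settings, with log2 differences from -0.68 to -0.51, and in 2 of the 16 fits that left out 1 library (those without 7-day replicate 3 or 14-day replicate 3), with log2 differences from -0.61 to -0.49 and limma-trend adjusted p values from 0.0131 to 0.137. Without 7-day replicate 1 and 14-day replicate 1, the libraries that stood apart, the log2 difference was -0.60 and the adjusted p 0.0678. With 14-day libraries of series 26 alone it was -0.51 with an adjusted p of 0.394. The call was also lost with all 4 groups in 1 model (adjusted p = 0.0817), with no filter on low values (0.0741) and with scaling to library totals alone (0.9998), all in limma-trend. The direction was the same in each of these fits.

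Within mouse-number series the comparison is possible for 1 14-day library each. In series 27 that library stood at 562 RPM and the 4 at 7 days at 684 to 884 RPM, a log2 difference of -0.48. In series 28 it stood at 537 RPM and the 4 at 7 days at 867 to 1186 RPM, a log2 difference of -0.89. Both lone 14-day libraries thus lay under all 7-day libraries of their own series. Both also had the fewest recovered reads of the sham libraries, 12.2 M and 14.2 M, and a high total signal, 1.64 M and 1.54 M RPM. Whether this bears on miR-145a-3p was not tested. The 4 libraries of series 28 were also higher than 3 of the 4 of series 27 within the 7-day group.

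The other products of the locus did not pass the test. The guide arm miR-145a-5p, known to repress regulators of the contractile state, stood at 1745 to 2977 RPM at 7 days (median 2166) and at 1853 to 2708 RPM at 14 days (median 2171). The groups overlapped almost wholly, with a log2 difference of 0.03 ± 0.12 (SE, adjusted p = 0.988 in limma-trend). miR-143-3p stood at 371220 to 643029 RPM at 7 days and at 314419 to 736846 RPM at 14 days. Its log2 difference was -0.05 ± 0.19 (SE, 95% interval -0.44 to 0.35, adjusted p = 0.992 in limma-trend). Values for miR-143-5p (log2 difference -0.17) and miR-145b (-0.08) had adjusted p values of 0.988.

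A ratio of arms within 1 hairpin does not depend on how libraries are scaled. The 3p arm made up 23.7% to 35.996% of miR-145a reads at 7 days and 18.6% to 23.4% at 14 days, and these groups did not overlap. The means were 28.9% ± 4.18 and 21.2% ± 1.75 (SD, n = 8 each). This ratio was looked at because miR-145a-3p had been called. Its exact permutation p was computed but is not printed, as the ratio was picked from the same data. Of 38 hairpins with both arms at 10 RPM or more, miR-145a was the only 1 whose groups did not overlap (2.63%), and it had the largest difference, beside a median difference of 0.598 percentage points. Hairpins with a 3p share near an end of the scale, such as miR-10a with 0.030% at 7 days, have little room to differ in points. The next largest differences were -5.62 points for miR-423 and 4.72 points for miR-335, and their groups overlapped.

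**Figure D3:**
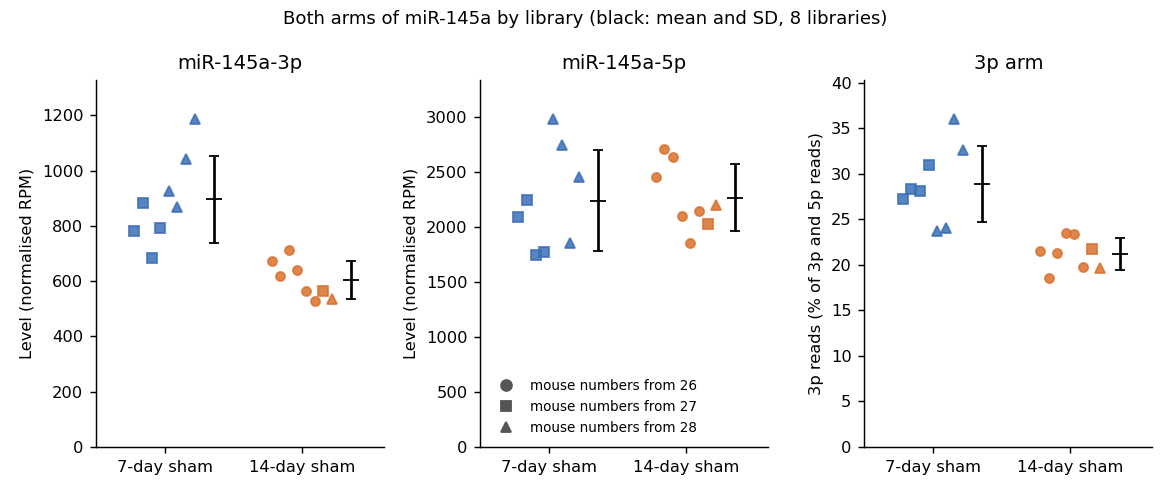
Both arms of miR-145a in each sham library, as normalised RPM (left, middle) and as the 3p share of both arms in percent (right). Symbols mark mouse-number series and black bars the mean and SD of 8 libraries. The 3p arm and its share lie lower at 14 days, while the 5p arm overlaps between groups.

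Ang II groups give context without a further test here. miR-145a-3p averaged 596 ± 142 RPM in 7-day Ang II and 560 ± 89.8 RPM in 14-day Ang II (SD, n = 8 each). Of the 4 group means, that of 7-day sham stood above the others, and that of 14-day sham lay near both Ang II means.

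The rows next in order of p had adjusted p values of 0.988 in limma-trend and did not pass. miR-1247-3p stood at 0.921 to 2.84 RPM at 7 days and at 1.53 to 4.20 RPM at 14 days (log2 difference 0.55 ± 0.17 SE). The Dlk1-Dio3 member miR-409-5p stood at 0.942 to 5.04 RPM and at 0.439 to 1.79 RPM (log2 difference -0.63 ± 0.21 SE), and without 7-day replicate 1 its difference was -0.46. For both, the 8 libraries of either group overlapped at levels of a few RPM.

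Further down were miR-501-3p (log2 difference -0.45), the neuronal miR-129-2-3p (-0.59), miR-668-3p (-0.33), miR-212-3p (-0.27), miR-30c-1-3p (0.32), miR-99b-3p (0.28) and miR-541-5p (-0.26). Their means lay below 20 RPM except for miR-541-5p, with 372 ± 44.6 RPM at 7 days and 313 ± 52.3 RPM at 14 days (SD, n = 8 each). All these groups overlapped.

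Members chosen for their known roles moved little. The endothelial miR-126-3p stood at 1646 to 2305 RPM at 7 days and at 1344 to 2204 RPM at 14 days (log2 difference -0.15 ± 0.11 SE). It was the less abundant arm of its hairpin, with a mean of 9.60% of both arms at 7 days and 8.01% at 14 days. The injury and fibrosis miRNA miR-21a-5p stood at 2046 to 3383 RPM and at 2656 to 5874 RPM (log2 difference 0.30 ± 0.16 SE). Its highest value belonged to 14-day replicate 1, and without that library the difference was 0.19. The inflammatory miR-155-5p stood at 14.7 to 25.1 RPM and at 16.6 to 28.2 RPM (log2 difference 0.13 ± 0.14 SE). Leaving out 1 library moved the difference of miR-126-3p between -0.20 and -0.08 and that of miR-155-5p between 0.06 and 0.19. None of the 3 passed, with adjusted p values of 0.988 in limma-trend.

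Lists of markers and clusters are described by counts and medians beside the median of 0.001 over all rows. Contractile smooth muscle had 1 of 5 members above 0, 1 called lower (miR-145a-3p) and a median log2 difference of -0.08. Red blood cell miRNAs had 0 of 5 above 0 and a median of -0.29, led by miR-144-5p at -0.52, and 0 called. Gut and liver miRNAs had 3 of 4 above 0 and a median of 0.45, with 0 called. Without both libraries that stood apart, the difference of the gut and liver list's mean log2 level dropped from 0.38 to 0.10. That of the red blood cell list moved away from 0, from -0.29 to -0.36. The contractile smooth muscle list did the same, from -0.16 to -0.20.

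Epithelial miRNAs had 8 of 10 above 0 with a median of 0.15, and fibroblast and remodelling miRNAs 6 of 7 above 0 with a median of 0.15. Without both libraries that stood apart, the mean log2 level of the epithelial list differed by -0.08 and that of the fibroblast list by 0.08. The Dlk1-Dio3 cluster, an imprinted region on chromosome 12 known for expression in embryonic tissue, had 13 of 57 members above 0 and a median of -0.09. Its mean log2 level differed by -0.09, and by -0.03 without those libraries. None of these 3 lists had a called member.

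Neuronal miRNAs had 2 of 8 above 0 (median -0.10). The difference of that list's mean log2 level was -0.18, and -0.05 without both libraries that stood apart. Above 0 were 1 of 4 rows of miR-132/miR-212 (-0.19). Leukocytes had 3 of 8 above 0 (-0.05), adipose tissue 4 of 5 (0.05) and pancreas 3 of 7 (-0.03). Endothelium had 1 of 2 above 0 (0.005), striated muscle 3 of 4 (0.05), the miR-183 cluster 1 of 3 (-0.15) and miR-221/miR-222 1 of 3 (-0.06). The miR-17 clusters had 4 of 9 above 0 (-0.05), the miR-106b cluster 1 of 5 (-0.09) and the clusters of miR-23, miR-27 and miR-24 5 of 9 (0.003). The Sfmbt2 intron cluster had 1 tested row of 49 in the table, the joint row of miR-297a, miR-297b and miR-297c, at 0.50. No member of these 13 lists was called. Without both libraries that stood apart, some of their mean log2 differences grew and others shrank. Leukocytes moved from -0.007 to -0.09 and the miR-106b cluster from -0.08 to -0.13, while pancreas moved from -0.06 to 0.003.

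The most abundant families among matched rows also gave no call. Both members of the miR-10 family were above 0 (log2 differences of 0.05 and 0.14) and both of the miR-26 family below (-0.21 and -0.004). The miR-30 family had 3 of 4 above 0, the let-7 family 5 of 9 and the miR-27 family 2 of 2. miR-26a-5p stood at 49814 to 74473 RPM at 7 days and at 45910 to 65409 RPM at 14 days. All 8 libraries at 14 days lay under its 7-day median, with an adjusted p of 0.988 in limma-trend.

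Spread between libraries of 1 group exceeded what counting alone would give. The SD of log2(RPM + 1), pooled over both groups, had a median of 0.346 over the 543 rows. For the 77 rows between 100 and 1000 RPM the median SD was 0.289, where counting alone would give 0.027. For the 12 rows above 10000 RPM it was 0.372, where counting would give 0.002. The larger SD was the 14-day one in 371 of 543 rows, with group medians of 0.319 at 7 days and 0.366 at 14 days.

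The steadiest miRNAs at 10 RPM or more were miR-23a-3p (SD 0.095), miR-130a-3p (0.104), miR-30d-3p (0.115), miR-199a-5p (0.117) and miR-25-3p (0.127). miR-23a-3p, from a cluster expressed in vessels, stayed between 846 and 1148 RPM in 16 libraries. These are levels on the authors' scale.

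**Figure D4:**
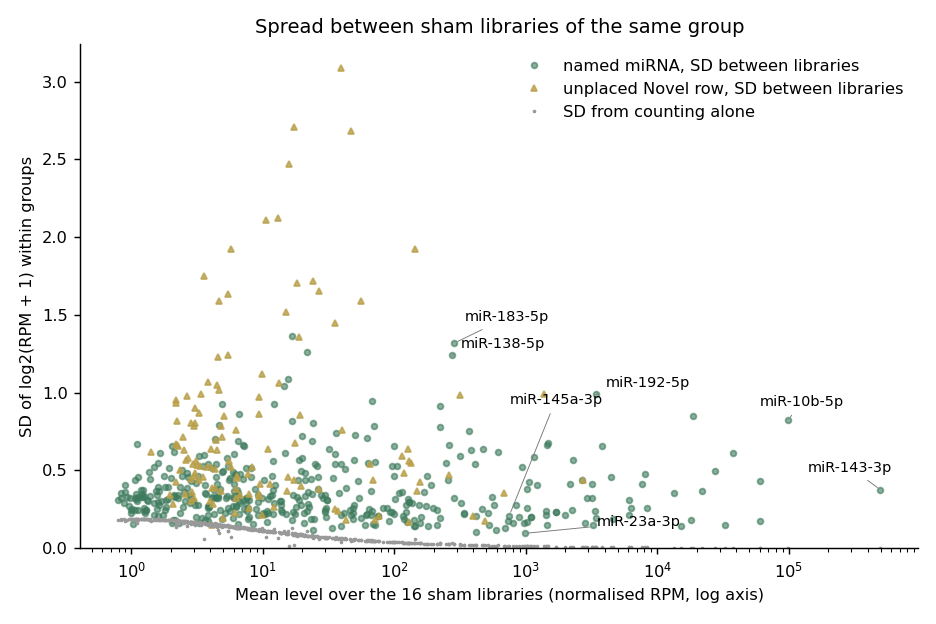
Pooled SD of log2(RPM + 1) within sham groups against the mean level (normalised RPM, log axis). Green circles are named miRNAs, yellow triangles unplaced rows and grey dots the SD that counting alone would give. miR-23a-3p is the lowest at 10 RPM or more, and the widest points are unplaced rows.

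The 10 widest rows at 10 RPM or more were all unplaced. They tended to be listed at 0 in some libraries and at well over 10 RPM in others. Novel_z_1 was listed at 0 in 14 libraries and stood at 119 and 133 RPM in the remaining pair. Novel_y_25 was listed at 0 in 6 libraries and at 33.6 to 123 RPM in the other 10. In all, 14 rows at 10 RPM or more were listed at 0 in at least 1 sham library, and 14 of these 14 were unplaced. Without the unplaced rows the median SD was 0.320.

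Named miRNAs with wide spread were picked after their values were seen. Their sequences are shown because miR-192-5p and miR-215-5p share a seed and peaked in different libraries, with the seed in capitals as before.
miR-183-5p: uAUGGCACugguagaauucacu
miR-138-5p: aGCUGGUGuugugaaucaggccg
miR-379-5p: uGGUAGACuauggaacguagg
miR-192-5p: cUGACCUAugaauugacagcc
miR-215-5p: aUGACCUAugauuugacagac

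The sensory and epithelial miRNA miR-183-5p ran from 54.3 to 873 RPM with a median of 139 (SD 1.32). The Dlk1-Dio3 member miR-379-5p ran from 3.68 to 46.5 RPM with a median of 8.07 (SD 1.09). Both were highest in 14-day replicates 5, 7 and 8. Other wide ones were miR-5097 (SD 1.36), miR-196a-5p (1.26), miR-1247-5p (1.04) and miR-6243 (0.943). The gut miRNA miR-192-5p was highest in 14-day replicate 1 at 15285 RPM. Its seed partner miR-215-5p was also raised there, at 33.2 RPM, and peaked in 14-day replicate 6 at 58.3 RPM. The remaining libraries held miR-215-5p at 2.83 to 13.4 RPM. In 14-day replicate 6 miR-192-5p stood at 1891 RPM.

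1 axis summarised much of the spread. The first principal component of the group-centred values held 34.8% of the variance within groups, and the second 15.9%. The component was above 0 in 6 libraries, 7-day replicates 3, 4 and 7 and 14-day replicates 5, 7 and 8, so each group had 3. The same 6 had the highest total signal, 1.37 to 1.67 M RPM against 0.956 to 1.24 M in the other 10. The part of the authors' scaling in this component was not tested. Among the 231 named miRNAs at 10 RPM or more the first component held 47.1%, and unplaced rows held 57.2% of its squared loadings in the full set.

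miR-10b-5p followed this axis and miR-10a-5p did so less. In the 6 libraries miR-10b-5p took 9.29% to 15.1% of reads, against 4.33% to 11.9% in the other 10. miR-10a-5p took 4.48% to 6.78% in the 6 and 4.23% to 6.52% in the others. The ranges overlap for both members, through 14-day replicate 6 in the case of miR-10b-5p. Its share averaged 8.62% ± 3.05 at 7 days and 9.14% ± 3.48 at 14 days (SD, n = 8 each, exact two-sided permutation p = 0.752), and the groups overlapped. Loadings were ranked among named rows at 10 RPM or more that matched a RefSeq sequence. The highest in that set were those of miR-183-5p, miR-379-5p, miR-184-3p and miR-10b-5p. The lowest were those of miR-138-5p, miR-196a-5p, miR-29a-3p and miR-434-3p.

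Marker lists showed which libraries departed from the rest. The neuronal list averaged 4.74 (mean log2 level) in 7-day replicate 1, against 3.53 to 4.03 in the other 7-day libraries. The same library had miR-9-5p at 423 RPM and miR-129-5p at 68.0 RPM, the highest of the 16, and the highest miR-132/miR-212 sum, 35.4 RPM. In 14-day replicate 1 the gut and liver list averaged 7.44, and no other sham library was above 6.49. Its liver-specific member miR-122-5p was low there, at 0.390 RPM beside a median of 0.681 RPM over the sham libraries. The same library was the highest for miR-200b-3p (1037 RPM), miR-200a-3p (681 RPM) and miR-429-3p (752 RPM), which share an epithelial role, and the lowest for miR-143-3p (314419 RPM). It was not the highest for miR-141-3p, the most abundant epithelial member, at 2255 RPM against 2661 RPM in 14-day replicate 5. Without both libraries the pooled SD of miR-138-5p was 0.950 and that of miR-194-5p 0.544, in place of 1.24 and 0.916. That fall follows from how the libraries were picked, since they held the highest values of these miRNAs.

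**Figure D5:**
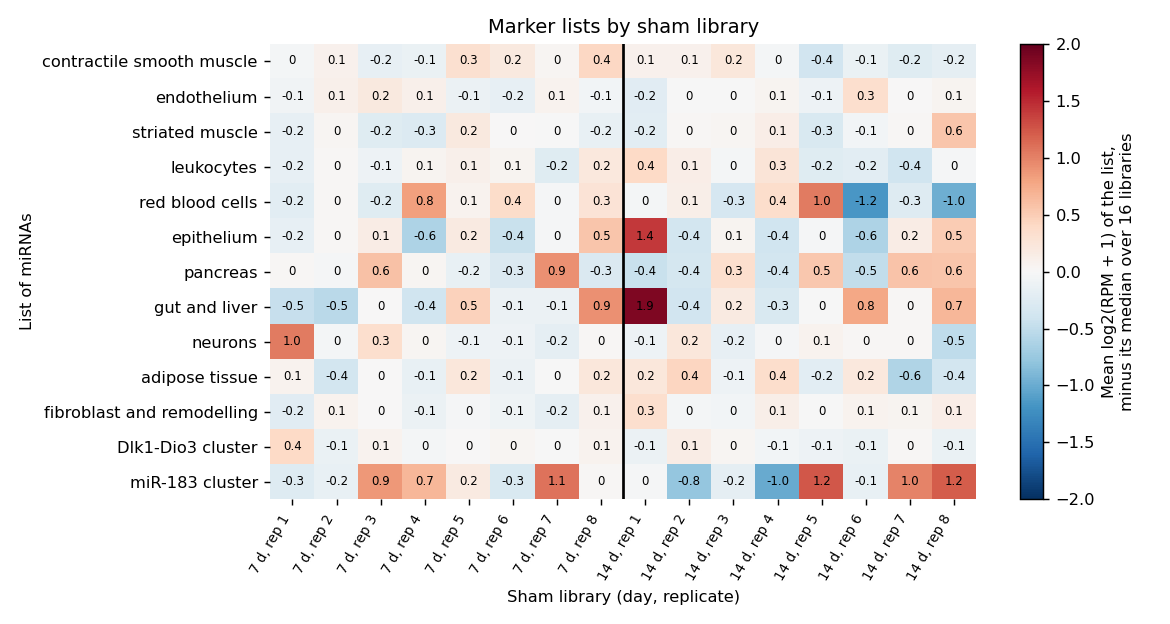
Mean log2(RPM + 1) of 13 lists (vertical) in each sham library (horizontal), as the difference from the list's median over 16 libraries. Red is higher and blue lower, and the line parts 7-day from 14-day libraries. The neuronal list is highest in 7-day replicate 1, and the epithelial and gut lists are highest in 14-day replicate 1.

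Red blood cell miRNAs also varied by library. miR-486-5p/miR-3107-5p stood highest in 14-day replicate 5 at 48795 RPM and in 7-day replicate 4 at 46644 RPM, and lowest in 14-day replicate 6 at 5612 RPM. miR-451a, made in developing red cells, was highest in 14-day replicate 5 at 1271 RPM and lowest in 14-day replicate 8 at 232 RPM. The muscle miRNA miR-1a-3p was highest in 14-day replicate 8 at 38.7 RPM, against 12.0 to 19.4 RPM in the other 15.

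The time difference was last fitted with mouse-number series as a term. In that fit the contrast rests on 14-day replicates 7 and 8, since the other 14-day mice belong to a series without 7-day libraries, and 5 rows were called by limma-trend. miR-145a-3p (log2 difference -0.68, adjusted p = 0.0460) and miR-212-3p (-0.58, adjusted p = 0.0460) were lower. miR-181d-5p was higher (0.61, adjusted p = 0.0320), at 163 and 188 RPM in those libraries and at 96.6 to 135 RPM in the other 14. Novel_z_8 was listed at 0 in both and stood at 21.9 to 35.0 RPM elsewhere, and Novel_y_108 was listed at 0 in both and stood at 1.31 to 9.97 RPM elsewhere. Whether these values go with time or with that pair of libraries cannot be told apart.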

How the data were processed

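Small RNA from 32 mesenteric artery samples was measured, and the 16 sham libraries are reported. The authors' deposited signal values per miRNA and library have no stated unit. In each library 100% of values were whole multiples of 1 step (tolerance 0.001 read), so reads were recovered, and the deposited signal was read as reads per M after a library-specific scaling. Build mm10 and the tools edgeR 3.6.8, STAR 2.3.1 (an aligner), FastQC, bcl2fastq 1.8.4 and R 3.2.3 come from the submitters' processing notes, which are held here without the role of each. How multi-mapping reads were handled and which annotation was used are not given in the sources used here. Per the labels, libraries came from a TruSeq small RNA kit.

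Of 1722 table rows, 364 were 0 throughout. For each of 1403 names (114 with several rows) 1 row was kept, the one highest on average, and identical rows were joined. The comparison used limma-trend, from limma 3.58.1 under R 4.3.3, on log2(value + 1) over the 16 sham libraries, two-sided, with Benjamini-Hochberg adjustment over 543 rows. Fold changes on this scale understate those of rare miRNAs. Single values per library were compared by exact permutation tests. Named miRNAs were the 20 most abundant, the 10 with the smallest p (as fewer than 5 were called), the 10 widest and 5 steadiest at 10 RPM or more, up to 4 per list, and miR-143-3p, miR-145a-5p, miR-145a-3p, miR-126-3p, miR-21a-5p and miR-155-5p. The 10 widest were unplaced rows, so the widest named ones were added. The miRNA lists, the rule and the alternatives were chosen with earlier results of these data known. Alternatives used recovered reads with edgeR 4.0.16 and DESeq2 1.42.0, other scalings, filters and pseudocounts, and libraries left out. The fits were tested on simulated data. Limits of 3 reads cover counting error only, as PCR copies were not separated by molecular identifiers.

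Some rows are near copies and cannot be told apart. These are miR-101a-3p and miR-101c, miR-125a-5p and Novel_x_30, miR-1843a-5p and miR-1843b-5p, miR-28a-5p and miR-28c, and miR-374b-5p and miR-374c-5p.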

Additional observations from a re-analysis of the deposited data

Results flagged for a closer look

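In 150 groups of 8 sham libraries (named miRNAs and list scores by time), 7 had a library whose gap to its nearest neighbour exceeded the critical share of the group's range (Dixon's ratio above 0.526). Chance flags about 1 in 20, here 7.5. Of the 7, 4 belonged to 7-day replicate 1. miR-138-5p stood at 1496 RPM there, against 84.9 to 229 in the other 7-day libraries. miR-409-5p stood at 5.04 RPM, against 0.942 to 2.21. The neuronal list averaged 4.74 (mean log2 level), against 3.53 to 4.03, and the Dlk1-Dio3 cluster averaged 3.46, against 2.92 to 3.13. In 14-day replicate 1, miR-194-5p stood at 1253 RPM, against 111 to 260, and miR-21a-5p at 5874 RPM, against 2656 to 3782. In 14-day replicate 6, miR-99b-3p stood at 11.8 RPM, against 7.23 to 8.68.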

How the results depend on the processing

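The limma-trend call count was 0 with all 4 groups in 1 model (18 rows at an unadjusted p under 0.05), with library totals alone (11), without a filter (41), with series 26 alone at 14 days (20) and, an alternative chosen after seeing the data, without both libraries that stood apart (20). The log2 difference of miR-145a-3p in these fits was -0.56, -0.55, -0.56, -0.51 and -0.60. The count was 5 with mouse-number series as a term, and 0 to 1 without each library in turn. It was 1 in the other 10 settings, miR-145a-3p each time, among them edgeR, DESeq2 and voom. The log2 difference of miR-143-3p turned to 0.0137 in edgeR and 0.51 with the series term, that of miR-145a-5p to -0.0011 in DESeq2 and -0.0559 with the series term, and that of miR-155-5p to -0.20 with the series term. The miR-212-3p difference was called with the series term alone. Leaving out 1 library moved miR-143-3p between -0.136 and 0.0391, miR-145a-5p between -0.0138 and 0.0962, the number of miRNAs holding 90% of reads between -0.625 and 1.09 (14-day minus 7-day), and the share of miR-10b-5p between -0.150 and 1.44 percentage points.

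With all deposited rows in the denominator, miR-143-3p held 39.2% and miR-10a-5p 4.76% of reads. The depth difference was -1.64 M over all rows (exact permutation p = 0.0612). It ran from -1.58 to -0.918 M when 1 library was left out (exact permutation p from 0.00311 to 0.0595), and the p exceeded 0.05 without 7-day replicate 2, 5 or 8 or 14-day replicate 7. The median SD was 0.447 with library totals alone, 0.341 with TMM, 0.390 and 0.186 with pseudocounts of 0.5 and 10, and 0.320 without unplaced rows. The share of the first component was 46.0%, 33.02%, 42.6% and 41.0% with library totals alone, with those 2 pseudocounts and without unplaced rows. Leaving out 1 library gave a median SD from 0.339 to 0.352 and a first component from 32.5% to 37.5%. The cause of these changes was not tested. No paired analysis was possible because replicate numbers here follow accession order and no mouse is shared between groups.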
